A study of Mus musculus with 48 samples.

Results

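The pars tuberalis of male CBA/N mice was compared after 2 weeks of long days (16 h of light and 8 h of dark) and under short days (8 h of light and 16 h of dark). The 24 arrays with these 2 labels, 12 under each photoperiod, were chosen by label alone and are 24 of the 48 arrays in the series. All of these mice were bought at 3 weeks of age and first kept for 3 weeks on short days at 400 lux. They were then given either 2 weeks of long days or further short days, and both groups were 8 weeks old at sampling. Tissue was taken every 4 h at ZT0, ZT4, ZT8, ZT12, ZT16 and ZT20, where ZT counts hours from lights-on, with 2 arrays at each time. Each array measured pooled tissue of 25 mice, punched with a 0.5 mm needle from slices 0.5 mm thick. According to the series' design text the sampling was carried out again from the start to give the second array, so the 12 arrays of a photoperiod come from 2 runs of it. The p-values below measure only the spread between arrays of 1 time point, which may be technical.

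The pars tuberalis is a sheet of pituitary cells around the stalk that joins the gland to the brain. Its thyrotrophs carry melatonin receptors and read the length of the night from the nightly melatonin signal. When nights are short they make thyrotropin, a hormone of an alpha subunit (Cga) and a beta subunit (Tshb), which acts on the neighbouring tanycytes of the brain. There it raises the deiodinase Dio2, which turns thyroxine into the active thyroid hormone that governs seasonal reproduction. Transcription of Tshb is driven by the factor Tef on a promoter element called the D-box, with the co-activator Eya3 and its homeobox partners.

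Values are the deposited log2 signals, so a difference of 1 is a doubling of the signal. The day mean difference is the mean of the 6 long-day time points minus that of the 6 short-day ones. A gene passed when its limma p-value, adjusted by the Benjamini-Hochberg method over all 18194 genes, was below 0.05. Errors of differences are SE from that fit. Array medians lay between 6.98 and 7.03, and the first quartile of gene means was 6.11. The first quartile serves as the bound below which a gene is called dim. The labelled tissue carried its defining markers: Cga lay at 13.21 or more in all 24 arrays, Tshb at 9.72 or more, Eya3 at 8.95 or more and the melatonin receptor Mtnr1a at 7.0 or more. In a punch, fewer cells of a type and less RNA per cell cannot be told apart. Prl or Gh, hormones of the neighbouring pars distalis, exceeded 10 in 4 arrays: the first short-day ZT12 array (Prl 11.06, Gh 10.82), the second long-day ZT4 array (Prl 10.5), the first long-day ZT8 array (Prl 10.46) and the second long-day ZT12 array (Prl 12.24, Gh 11.32). At ZT16 and ZT20 the long-day arrays of 1 time point differed widely in rhythmic genes, and the second array of each time lay near the first of the other. Mtnr1a was 8.17 in the first and 10.41 in the second array of ZT16, and 9.85 in the first and 8.30 in the second array of ZT20. Several values that rest on these arrays are also given without the second array of both times.

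A large share of genes differed between the photoperiods, mostly by small amounts. Of 18194 genes, 8503 passed (46.7%), 3200 higher under long days (17.6%) and 5303 lower (29.1%). Differences of at least 1.5-fold were rarer: 180 genes rose by that much (0.989%) and 202 fell (1.11%). All 12 long-day arrays lay above all 12 short-day arrays for 377 genes (2.07%) and below them for 590 (3.24%). Passing depended on signal level. With the tested genes cut into 10 groups by level, 2.1% passed higher and 3.5% lower in the dimmest group. In the brightest group 37.1% passed higher and 26.8% lower, and the share lower was largest, 47.5%, in the 7th. List counts below are not matched for level, so shares over all genes are only a rough guide. The balance of directions depends on how arrays are scaled. As deposited, 37.6% of passing genes were higher and the median gene differed by -0.03. With each array centred on its median, 59.5% were higher (5215 up, 3555 down) and the median gene was 0.04. Centred on the 75th percentile, 49.5% were higher (4114 up, 4205 down). Small differences are therefore read below against these shifts, and list counts whose balance turns when arrays are centred on the median are given both ways. Counts of list members stand beside the 17.6% of all genes higher and the 29.1% lower. A list near these shares shows no more than the genes at large. Without the 4 arrays high in Prl or Gh 7286 genes passed, with 165 rises and 184 falls of at least 1.5-fold. Without the second long-day arrays of ZT16 and ZT20, 8020 passed.

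A sign of RNA quality moved with the photoperiod. The 3 prime minus 5 prime signal of actin was 1.65 ± 0.12 (SD, n = 12) under long days, from 1.43 to 1.82, and 1.89 ± 0.12 (SD, n = 12) under short days, from 1.77 to 2.19 (two-sided permutation test, p = 2e-05, the smallest the resamples can give). That of Gapdh was 2.14 ± 0.16 against 2.28 ± 0.13 (SD, n = 12 each, permutation p = 0.028). With the actin value as a covariate 5006 genes passed, 114 of them rises and 98 falls of at least 1.5-fold. Of 226 passing genes whose values were followed across all settings, 13 no longer passed with this covariate. Many of the followed genes were picked for small p-values or large changes in the day mean, which favours their passing again.

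The hormone itself showed the largest difference of all. Tshb ranged from 13.76 to 14.43 under long days, with a median of 14.11, and from 9.72 to 11.26 under short days, with a median of 10.52. The highest short-day array lay far below the lowest long-day array. The day mean difference was 3.56 ± 0.16, or 11.8-fold (n = 12 arrays each, adjusted p = 3.58e-18 in limma). It was nearly even over the day, from 3.22 at ZT20 to 3.81 at ZT4, and the F test of a difference between time points did not pass (adjusted p = 0.959). Cga, the subunit that pairs with it, had no such difference and a short-day median of 13.84. Its levels ran from 13.38 to 14.11 under long days and from 13.21 to 14.13 under short days, and the ranges overlapped almost fully (0.03 ± 0.06, adjusted p = 0.677). Cga instead differed between time points (F test, adjusted p = 0.0135): the long minus short difference was 0.58 at ZT8 and -0.40 at ZT20, the latter -0.48 without the second long-day arrays of ZT16 and ZT20.

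The promoters of 4 genes that the comparison turns on are shown because they hold, or lack, the short motifs tied to these factors. Each is the 250 bases before the RefSeq start in GRCm38.p6, 5′ to 3′, with every match to any of 4 motifs in capitals: the D-box TTANGTAA, the cAMP response element TGACGTCA, the E-box CACGTG and the TATA box TATAAA, each searched on both strands.
Tshb, chr3:102782715-102782964, minus strand: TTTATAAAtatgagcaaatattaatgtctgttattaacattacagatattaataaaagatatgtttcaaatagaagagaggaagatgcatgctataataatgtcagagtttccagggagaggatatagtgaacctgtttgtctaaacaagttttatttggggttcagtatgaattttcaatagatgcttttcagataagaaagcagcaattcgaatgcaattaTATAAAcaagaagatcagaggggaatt
Cga, chr4:34893529-34893778, plus strand: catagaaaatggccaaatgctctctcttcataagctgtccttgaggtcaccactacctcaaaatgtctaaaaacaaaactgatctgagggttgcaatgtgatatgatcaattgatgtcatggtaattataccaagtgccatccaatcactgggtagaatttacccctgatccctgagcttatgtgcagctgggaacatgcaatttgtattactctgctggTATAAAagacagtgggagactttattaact
Dio2, chr12:90739039-90739288, minus strand: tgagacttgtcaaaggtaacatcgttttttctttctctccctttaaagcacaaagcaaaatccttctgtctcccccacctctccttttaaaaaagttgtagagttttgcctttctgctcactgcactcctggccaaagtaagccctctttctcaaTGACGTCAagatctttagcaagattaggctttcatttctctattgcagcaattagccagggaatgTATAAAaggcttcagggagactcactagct
Timeless, chr10:128237816-128238065, plus strand: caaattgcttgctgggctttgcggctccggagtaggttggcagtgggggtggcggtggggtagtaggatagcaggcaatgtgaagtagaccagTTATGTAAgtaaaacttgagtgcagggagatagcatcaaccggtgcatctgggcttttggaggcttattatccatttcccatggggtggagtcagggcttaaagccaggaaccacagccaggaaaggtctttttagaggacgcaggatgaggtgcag
Of 32851 RefSeq promoters of this length, 2.06% hold the D-box, 1.55% the cAMP response element, 6.02% the E-box and 12.37% the TATA box; matches on opposite strands can overlap, as at the far end of the Tshb window. In the Tshb window only the TATA box was matched, at position -27 from the start and again at -248 and -250, and the D-box letters were not in it. Cga has a TATA box at -30. Dio2 has a cAMP response element at -95 and a TATA box at -30. The Timeless window holds 1 D-box at -157 and no TATA box. Among the 15 largest rises described below 13 had a promoter in the table, and the D-box was found in Timeless and Sval2. Of the 180 rises of at least 1.5-fold 138 had a promoter, of which 3 held the D-box and 20 the E-box. Of 14453 tested genes with a promoter, 275 held the D-box and 1262 the E-box.

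Eya3 rose with Tshb. Its arrays ran from 9.46 to 10.88 under long days, with a median of 9.98, and from 8.95 to 9.43 under short days, with a median of 9.17, without overlap. The difference was 0.90 ± 0.07 (adjusted p = 9.06e-12) and was widest at ZT4, 1.71, against 0.56 to 0.97 at the other times (F test between times, adjusted p = 0.027). Without the second long-day arrays of ZT16 and ZT20 the Eya3 difference at ZT16 was 0.47. Hlf, which binds the same D-box as Tef, rose by 0.70 ± 0.05 with no overlap between the groups. Tef and Dbp, the other members of that family, did not pass in the day mean, at -0.07 ± 0.05 and -0.09 ± 0.10. Pitx1, a homeobox factor of pituitary hormone genes, rose by 0.58 ± 0.08, and Lhx3, another, fell by 0.36 ± 0.06. Of 11 measured genes of thyrotropin and its transcription, 5 rose and 1 fell (median 0.03), beside 17.6% and 29.1% over all genes. Among 11 genes of the Eya family and its homeobox and Dach partners 4 rose and 5 fell (4 and 4 after centring on the median), and they split widely. Eya1 and Six4 rose by 0.77 ± 0.09 and 0.81 ± 0.08, while Six6, Six3 and Six5, relatives of Six4, fell by 0.59 ± 0.06, 0.47 ± 0.06 and 0.32 ± 0.05. Trhr, the receptor for thyrotropin-releasing hormone, rose by 0.81 ± 0.05, from short-day values of 7.94 to 8.79 to long-day values of 8.87 to 9.54.

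**Figure D1:**
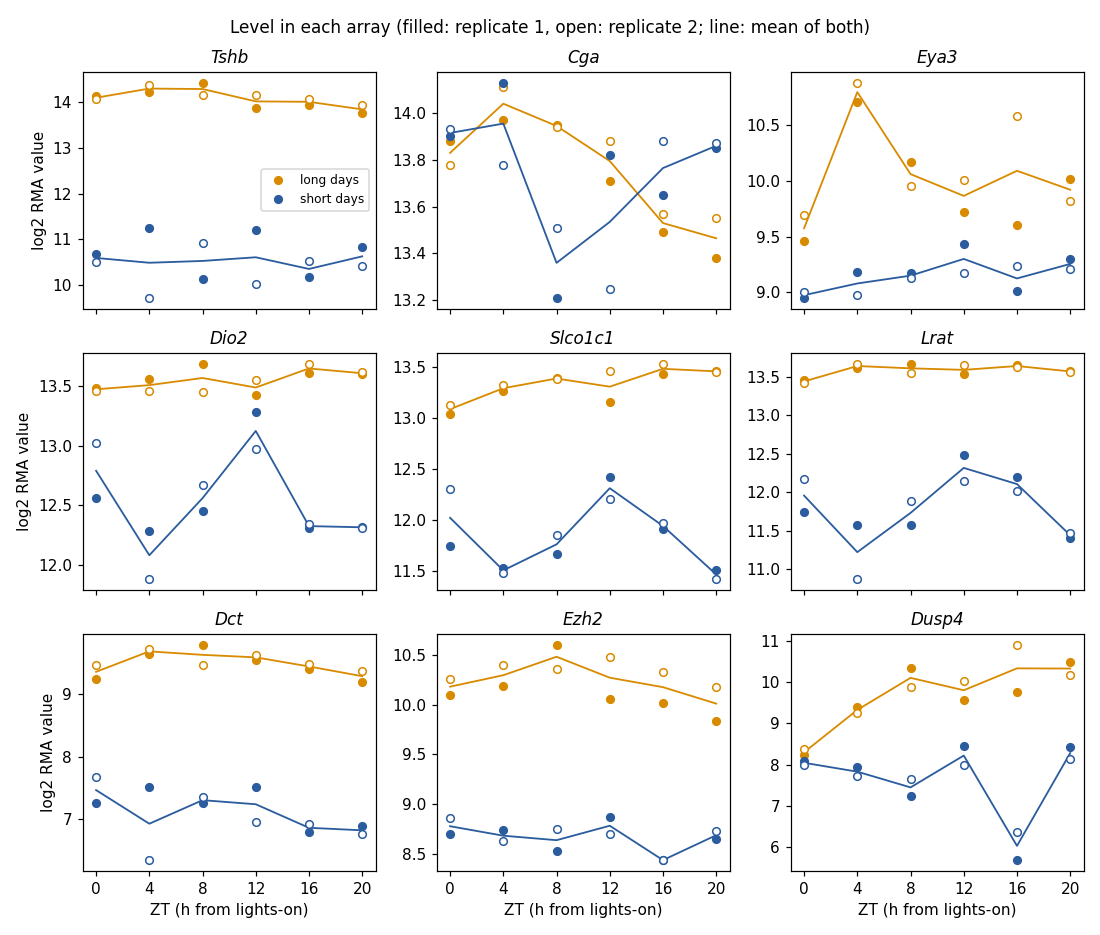
Log2 RMA value of each array (y axis) against ZT in h (x axis) for 9 genes; orange is long days, blue short days, filled and open points are replicates 1 and 2, and lines join their means. Tshb stays between 13.76 and 14.43 under long days and between 9.72 and 11.26 under short days, while the Cga ranges overlap. Lrat spans 13.42 to 13.67 under long days and 10.87 to 12.48 under short days.

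The melatonin receptor and its G proteins did not move as a block. Mtnr1a ranged from 7.91 to 10.41 under long days and from 7.0 to 9.63 under short days, and the groups overlapped. Its day mean was 0.90 ± 0.16 higher under long days (adjusted p = 1.99e-05), with a difference of -0.77 at ZT12 and 2.21 at ZT16 (F test between times, adjusted p = 0.0082). The large ZT16 value includes the second long-day array of that time, which read 10.41 where the first read 8.17; without the second long-day arrays of ZT16 and ZT20 the day mean difference was 0.85 and that at ZT16 was 1.09. Among the inhibitory G protein alpha subunits that this receptor uses, Gnai3 rose by 0.53 ± 0.06 and Gnai2 fell by 0.42 ± 0.04, each without overlap between the groups, and Gnai1 was -0.00 ± 0.03. Of the 10 genes of this list 2 rose and 3 fell, near the 17.6% and 29.1% over all genes. After centring on the median 5 rose and 3 fell. Gpr50, a melatonin-related receptor, was 0.05 ± 0.04 higher, which did not pass.

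In the cAMP pathway, which melatonin restrains, more genes fell than rose, by small amounts. Of 25 genes 5 rose and 13 fell, beside 17.6% and 29.1% over all genes, and 6 and 10 after centring on the median. Their median was -0.09 against -0.03 over all genes. The CREB co-activators Crtc1, Crtc2 and Crtc3 fell by 0.33 ± 0.04, 0.36 ± 0.06 and 0.34 ± 0.05. Of 8 adenylyl cyclases 4 fell, among them Adcy3 by 0.38 ± 0.06 and Adcy2 by 0.28 ± 0.04, while Adcy6 rose by 0.23 ± 0.07 and Adcy5 by 0.10 ± 0.04. Crem, whose gene also encodes a cAMP-inducible repressor, had the largest rise of the list, 0.41 ± 0.06. Its arrays overlapped, from 8.77 to 9.90 and from 8.21 to 9.74, since the difference ran from -0.75 at ZT12 to 1.05 at ZT0. The enzymes that break cyclic nucleotides down went the other way: 9 of 18 phosphodiesterases rose and 4 fell (median 0.13). Pde7b, a cAMP-specific form, rose by 0.76 ± 0.06, Pde7a by 0.50 ± 0.06 and Pde8b by 0.42 ± 0.05. Pde1b, a calcium-dependent form, fell by 0.56 ± 0.06, from 8.33 to 8.97 down to 7.93 to 8.27 with no overlap.

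Genes for thyroid hormone handling were led by a transporter and a deiodinase. Slco1c1, which carries thyroxine into cells, lay between 13.04 and 13.53 under long days, with a median of 13.38, and between 11.42 and 12.42 under short days, with a median of 11.79. The groups did not overlap, and the difference was 1.5 ± 0.07, or 2.83-fold (adjusted p = 3.34e-17). Dio2 ran from 13.43 to 13.69 (median 13.55) and from 11.88 to 13.28 (median 12.39), again without overlap, a difference of 1.02 ± 0.06 (adjusted p = 1.38e-15). Its long-day arrays spanned little and its short-day arrays rose to a mean of 13.13 ± 0.22 (SD, n = 2) at ZT12, where the difference shrank to 0.36 from 1.43 at ZT4. Hr, a co-repressor that thyroid hormone is known to induce, rose by 0.67 ± 0.05, and the receptor Thra fell by 0.41 ± 0.04. A second Hr probe set gave 0.04 and did not pass. Of 13 genes on the list 4 rose and 4 fell (5 and 4 after centring on the median), beside 17.6% and 29.1% over all genes. Dio2 and Slco1c1 are also known from tanycytes, which border the tissue. Of 14 tanycyte markers, Dio2 among them, 5 rose and 4 fell (6 and 2 after centring on the median), with Rax and Vim falling by 0.58 ± 0.07 and 0.15 ± 0.04. The summed level of the markers, 1 of them dim, ran from 15.75 to 15.94 under long days and from 15.34 to 15.69 under short days. Dio2 was the brightest of them under long days and the only one to pass with a change of at least 1.5-fold. The sum is therefore not separate from the Dio2 difference. The part of tanycytes in these values was not tested.

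Retinoid enzymes held 3 of the strongest differences. Lrat, which stores retinol as esters, ran from 13.42 to 13.67 under long days, with a median of 13.60, and from 10.87 to 12.48 under short days, with a median of 11.82. The difference was 1.79 ± 0.08, or 3.45-fold (adjusted p = 3.58e-18), and a second probe set gave 2.21. Aldh1a1, which makes retinoic acid, was 13.47 to 13.71 against 11.98 to 12.66, a rise of 1.24 ± 0.07 with no overlap. Aldh1a7, a close relative of it, rose by 1.46 ± 0.07 from short-day values of 6.40 to 7.23; signal shared between the 2 sequences was not tested. Other members rose less: Crabp2, a carrier of retinoic acid, by 0.61 ± 0.08, the retinol-binding protein receptor Stra6 by 0.55 ± 0.07 and Aldh1a2 by 0.49 ± 0.07. Aldh1a2 is also a marker of meninges, and 6 of 12 meningeal markers rose and 2 fell, with summed levels of 14.98 to 15.54 and 14.94 to 15.74. Of the 6 retinoid receptors 4 fell, Rxrg by 0.82 ± 0.05 without overlap, Rxrb by 0.44 ± 0.06, Rarg by 0.33 ± 0.04 and Rxra by 0.30 ± 0.04. The plasma carrier Rbp4 fell by 0.50 ± 0.06. In all, 6 of 23 rose and 8 fell, or 7 and 6 after centring on the median, beside 17.6% and 29.1% over all genes.

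The 15 largest rises with the same sign at all 6 time points otherwise belong to unlike functions. In 10 of these 15 the groups did not overlap, and in 5 (Dusp4, Prl, Piwil4, Tafa3 and Timeless) they did; long-day arrays lay above for 2.07% of all genes, and the choice of the largest rises favours such genes. Dct, an enzyme of melanin synthesis, was 9.19 to 9.78 under long days (median 9.47) against 6.35 to 7.67 (median 7.11), a rise of 2.39 ± 0.10, or 5.22-fold (adjusted p = 3.67e-19). The other melanin enzymes, Tyr and Tyrp1, and the melanosome transporter Oca2 did not pass, at 0.01 ± 0.06, -0.03 ± 0.05 and -0.05 ± 0.06, and all 3 were dim. Of 11 pigment genes 2 rose and 1 fell, beside 17.6% and 29.1% over all genes. Ezh2, the methyltransferase of polycomb repressive complex 2, rose by 1.56 ± 0.07 from 8.44 to 8.87 up to 9.84 to 10.60 (medians 8.70 and 10.22). Its partners Suz12 and Eed rose by 0.45 ± 0.06 and 0.21 ± 0.04, its paralog Ezh1 was 0.03 ± 0.03, and 3 of 11 complex members rose while 2 fell. After centring on the median 6 of them rose and 2 fell, and with the actin covariate 5 rose and 1 fell. With the median over probe sets 8 rose and 1 fell. Spink4, a secreted peptide of the protease inhibitor family, rose by 1.89 ± 0.15. Its short-day arrays sat close together, from 6.04 to 6.53, and its long-day arrays spread from 7.07 to 9.38, both extremes at ZT8.

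Dusp4, a phosphatase that switches off MAP kinases, rose by 2.05 ± 0.13, or 4.15-fold (adjusted p = 1.79e-14), but unevenly. The means at ZT0 were 8.30 ± 0.10 and 8.04 ± 0.06 (SD, n = 2), a difference of 0.26. At ZT16 they were 10.33 ± 0.81 and 6.04 ± 0.49, a difference of 4.29 (F test between times, adjusted p = 5.86e-06), or 3.72 without the second long-day arrays of ZT16 and ZT20. Timeless, a partner of the replication fork that is also tied to the clock, had its smallest difference at the same hour and its largest at ZT16: 10.33 ± 0.13 against 9.66 ± 0.17 at ZT0 and 11.59 ± 0.08 against 9.04 ± 0.15 at ZT16. Its day mean rose by 1.30 ± 0.07, and a second probe set gave 1.42. Among 19 MAP kinase phosphatases and feedback inhibitors 5 rose and 6 fell, beside 17.6% and 29.1% over all genes. After centring on the median 6 rose and 5 fell. Dusp1, an early-response member, rose by 0.36 ± 0.07, and the feedback inhibitor Spry2 fell by 0.39 ± 0.05.

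Among the remaining large rises, Piwil4, a protein of the piRNA pathway, rose by 1.64 ± 0.13, and its second, dim probe set gave 0.21. Fut4, a fucosyltransferase, rose by 1.43 ± 0.08, from 6.39 to 7.07 up to 7.42 to 8.84, with 2.39 at ZT0 and 0.63 at ZT12, while its dim second probe set gave 0.02. Tafa3, a secreted chemokine-like protein, rose by 1.41 ± 0.11, with 2.16 at ZT8 and 0.27 at ZT20, the latter -0.00 without the second long-day arrays of ZT16 and ZT20. Tmprss2, a membrane serine protease, rose by 1.28 ± 0.10 without overlap, and the next brightest probe set gave 1.27. Sval2 had a dim short-day day mean of 5.09 and a long-day one of 6.77, a difference of 1.67 ± 0.16. Prl, prolactin, differed by 1.74 ± 0.59 (adjusted p = 0.014) with values from 5.88 to 12.24 and from 5.41 to 11.06. It no longer passed without the second short-day ZT12 array (1.29), without the first long-day ZT8 array (1.36), without all second arrays (0.93), without the second long-day arrays of ZT16 and ZT20 (1.48) or, with the same estimate, with the replicate number of each condition as a random block.

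The 15 largest falls were smaller, and 12 of them did not overlap between the groups, a pattern that their choice favours and that 3.24% of all genes showed. Col23a1, a transmembrane collagen, fell by 1.26 ± 0.04 (adjusted p = 3.58e-22), from 11.98 to 12.80 under short days (median 12.53) down to 10.98 to 11.43 (median 11.21). Its other probe sets gave -1.02 and -0.99. Lgr6, a receptor for R-spondins, fell by 1.10 ± 0.05, from 8.99 to 9.66 down to 7.90 to 8.66. Slc25a23, a mitochondrial carrier of ATP and magnesium, fell by 1.09 ± 0.08. Arhgef17, a guanine nucleotide exchange factor, fell by 1.18 ± 0.06 and Scaf1, a splicing-associated factor, by 1.12 ± 0.07, both without overlap; of the other Arhgef17 probe sets 1 gave -0.23 and the rest did not pass. Hspb6 and Myl9, known from smooth muscle, fell by 1.02 ± 0.06 and 0.92 ± 0.08. Trim32, a ubiquitin ligase, fell by 0.93 ± 0.06 and Man1b1, a mannosidase of protein quality control, by 0.91 ± 0.06. Nynrin, Lrfn3, Abhd8 and Borcs6 fell by 0.97 to 1.08. Fshb, which encodes the specific chain of follitropin, fell by 0.93 ± 0.16 with wide overlap, from 7.20 to 9.64 and from 7.61 to 10.41. It belongs to the pars distalis markers, of which 7 of 15 fell, Lhb by 0.59 ± 0.12 among them, and 2 rose, Prl and Trhr. Over all genes 29.1% fell and 17.6% rose. After centring on the median 4 of these markers fell and 3 rose. The summed level of the markers was 12.89 to 14.31 and 13.03 to 13.88, 3 of them dim. Gh and Pomc did not pass at 0.27 ± 0.42 and -0.00 ± 0.15. The part of pars distalis cells in these values was not tested.

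**Figure D2:**
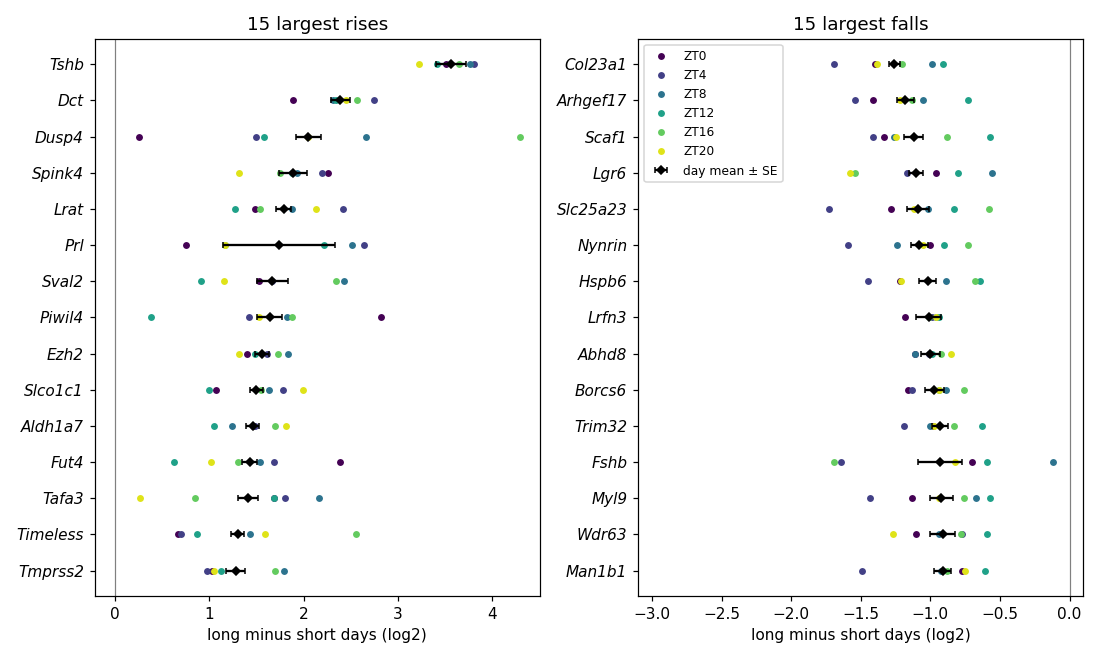
Day mean difference, long minus short days on the log2 scale (x axis), of the 15 largest rises and 15 largest falls (y axis); black diamonds with bars are the day mean with its SE and coloured points the difference at each ZT from 2 arrays of each photoperiod. Dusp4 runs from 0.26 at ZT0 to 4.29 at ZT16, while Tshb stays between 3.22 and 3.81.

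Signals passed between cells changed in several families. In the hedgehog pathway 6 of 13 genes rose and 2 fell, beside 17.6% and 29.1% over all genes. Hhip, which binds and restrains hedgehog ligands, rose by 1.16 ± 0.06, from 7.52 to 8.42 up to 8.75 to 9.37. The ligand Shh rose by 0.51 ± 0.04. The transducer Smo fell by 0.44 ± 0.05, while a dim probe set of it rose by 0.48, and the inhibitor Sufu by 0.43 ± 0.05. The target gene Gli1 was -0.16 ± 0.07, which did not pass, and Ptch1 rose by 0.36 ± 0.04 while the median over its probe sets was -0.14. WNT and R-spondin genes rose in 13 of 26 and fell in 5 (median 0.12). The co-receptor Lrp6 rose by 0.75 ± 0.05, the ligand Wnt5a by 0.67 ± 0.05, the receptor Fzd5 by 0.49 ± 0.05 and Lgr5, a relative of Lgr6, by 0.59 ± 0.07, each without overlap between groups. Second probe sets of Lrp6 and Lgr5, the latter dim, gave 0.11 and 0.01 and did not pass. Rspo1, an R-spondin, fell by 0.52 ± 0.07, and Axin2, a common target of the pathway, by 0.21 ± 0.03. Notch genes divided into 5 rises and 6 falls of 13 (5 and 5 after centring on the median): the receptor Notch3 and the target Hes5 fell by 0.53 ± 0.05 and 0.69 ± 0.08, and the target Hey2 rose by 0.82 ± 0.05, all without overlap.

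Peptides and growth factors moved one by one, and over all genes 17.6% rose and 29.1% fell. Cck, cholecystokinin, was 10.40 to 10.79 under long days and 8.95 to 10.13 under short days, a rise of 0.96 ± 0.09 without overlap. Oxt, oxytocin, rose by 0.95 ± 0.09 with overlap, and Avp, vasopressin, by 0.44 ± 0.13, both hormones of hypothalamic neurons. Somatostatin (Sst) and substance P (Tac1) fell by 0.57 ± 0.07 and 0.53 ± 0.14, and of 21 peptide and receptor genes 4 rose and 7 fell (5 and 5 after centring on the median). Of 22 markers of hypothalamic neurons 3 rose and 6 fell (5 and 4 after centring), 1 of them dim, with summed levels of 15.34 to 15.71 and 15.40 to 15.83; their part in the peptide values was not tested. In the VEGF family 5 of 14 rose and 5 fell (6 and 3 after centring). Vegfa rose by 0.34 ± 0.07, Pgf and Vegfb fell by 0.43 ± 0.04 and 0.44 ± 0.06, and Vegfd fell by 0.24 ± 0.07 in the day mean with single-time differences from -1.40 at ZT20 (-1.61 without the second long-day arrays of ZT16 and ZT20) to 1.26 at ZT8, while both of its other probe sets gave 0.42. Of 27 activin, BMP and TGF beta genes 8 rose and 9 fell (10 and 6 after centring): the ligands Tgfb2 and Tgfb3 rose by 0.49 ± 0.07 and 0.41 ± 0.06, and Inha, the alpha subunit of inhibin, fell by 0.47 ± 0.04 without overlap.

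The machinery that folds secreted proteins rose in larger part than the 17.6% of all genes, which were not matched to it for signal level. Of 25 genes of endoplasmic reticulum folding and stress 15 rose and 5 fell, with a median of 0.12. The disulfide isomerases Pdia4, Pdia3 and Pdia6 rose by 0.64 ± 0.07, 0.46 ± 0.07 and 0.39 ± 0.06, the chaperone Hsp90b1 by 0.31 ± 0.04 and Sdf2l1 by 0.52 ± 0.05. The major chaperone Hspa5 rose by only 0.12 ± 0.04, and the stress factor Xbp1 and the ligase Syvn1 fell by 0.22 ± 0.03 and 0.33 ± 0.04. With the actin covariate 9 of the 25 rose and 2 fell. In the steps of entry and glycosylation 9 of 27 rose and 5 fell (13 and 0 after centring on the median), with Alg5, Sec63, Stt3a and Sec11a up by 0.36 to 0.44. Of the coats that carry cargo between the reticulum and the Golgi, 9 of 27 rose and 9 fell (12 and 6 after centring). Sec24a rose by 0.48 ± 0.04 and the retrieval receptors Kdelr1, Kdelr2 and Kdelr3 fell by 0.28 ± 0.04, 0.47 ± 0.04 and 0.41 ± 0.05. Second probe sets of Sec24a and Kdelr2 gave 0.00 and -0.09 and did not pass. Granins and peptide-processing genes fell in 11 of 21 and rose in 4, beside 29.1% and 17.6% over all genes. After centring on the median 8 fell and 5 rose, and with the actin covariate 5 fell and 4 rose. Pam, which amidates peptides, fell by 0.71 ± 0.05, from 8.09 to 8.49 down to 7.25 to 7.68, and the vesicle proteins Vamp2 and Stx1a by 0.49 ± 0.04 and 0.44 ± 0.05. Chga, Cpe and Syt4 rose by 0.26 ± 0.05, 0.14 ± 0.03 and 0.42 ± 0.05, while a second Syt4 probe set gave -0.12 and did not pass.

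Genes that act on RNA and chromatin also differed, beside 17.6% higher and 29.1% lower over all genes. Splicing factors had the highest share of rises of the lists, 23 of 33 with 4 falls and a median of 0.16, or 25 and 2 after centring on the median. Srsf10, Srsf5, Luc7l2 and Hnrnph1 rose by 0.61 ± 0.05, 0.58 ± 0.05, 0.52 ± 0.06 and 0.47 ± 0.04, and Hnrnph1 did not overlap between the groups. Other Srsf10 probe sets gave 0.82, 0.34 and 0.06, and the last did not pass. With the actin covariate 14 of the 33 splicing factors rose and 1 fell. Of 26 DNA and histone modifiers 4 rose and 11 fell, but 9 and 8 after centring on the median. The deacetylase Hdac6 and the methyltransferase Ehmt2 fell by 0.50 ± 0.05 and 0.41 ± 0.04, Dnmt1, the maintenance DNA methyltransferase, fell by 0.35 ± 0.04, and Dnmt3a, which sets new methylation, rose by 0.63 ± 0.08 while 3 of its 4 other probe sets did not pass, at 0.00, 0.02 and 0.07. Of 23 clock genes 10 rose and 2 fell in the day mean. Beside Timeless and Hlf, Rora rose by 0.57 ± 0.06, Cry2 by 0.36 ± 0.06, Per2 by 0.30 ± 0.06 and Rorb by 0.30 ± 0.06, while Nr1d1 fell by 0.34 ± 0.05. The other Per2 probe sets gave -0.07 and -0.12 and did not pass. The core activator Arntl was -0.04 ± 0.06 and Per1 -0.07 ± 0.07, which did not pass.

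Complex I and ribosomal protein genes fell more often than they rose, by small amounts, and over all genes 29.1% fell and 17.6% rose. Of 33 complex I subunits 20 fell and 3 rose (median -0.12), or 13 and 6 after centring on the median. Ndufa10, Ndufs7 and Ndufb8 fell by 0.45 ± 0.04, 0.43 ± 0.05 and 0.30 ± 0.04, with overlapping arrays. In complexes III, IV and V 12 of 32 fell and 5 rose, or 7 and 7 after centring and 4 and 5 with the actin covariate. Cytosolic ribosomal protein genes fell in 17 of 30 and rose in 2 (median -0.11), but in 6 and 3 after centring and in 3 and 2 with the actin covariate. Complex I kept 7 falls and 2 rises with that covariate. Rpl14 fell by 0.28 ± 0.04 without overlap and Rpl19 by 0.36 ± 0.05. Of 23 genes of the tricarboxylic acid cycle 7 rose and 10 fell (10 and 8 after centring), with Pdha1, of pyruvate dehydrogenase, up by 0.32 ± 0.03. In glycolysis 5 of 19 rose and 6 fell (9 and 3 after centring): Hk2, a hexokinase, rose by 0.69 ± 0.07 and Aldoc fell by 0.39 ± 0.05. In cholesterol synthesis 6 of 19 rose and 4 fell, and Dhcr7, the last step, fell by 0.72 ± 0.06 without overlap. Translation factors rose in 7 of 20 and fell in 6, proteasome genes rose in 8 of 31 and fell in 9 (11 and 5 after centring), and mitochondrial carriers rose in 12 of 31 and fell in 10.

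**Figure D3:**
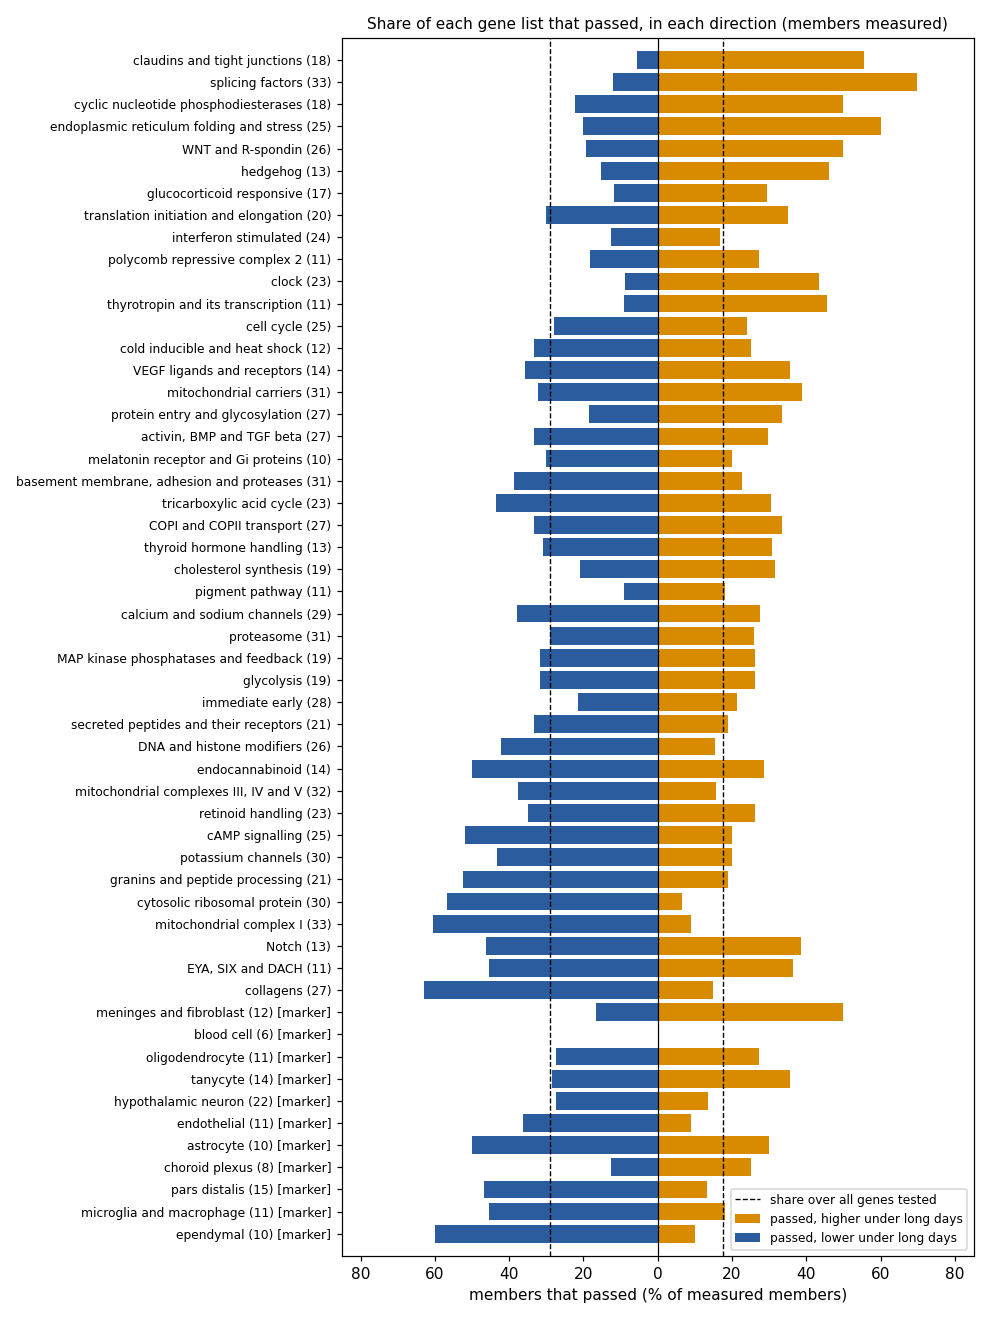
Percentage of measured members (x axis) that passed with a higher (orange, right) or lower (blue, left) day mean under long days for 54 gene lists (y axis, number of measured members in brackets); dashed lines mark the shares over all genes, 17.6% and 29.1%. Splicing factors reach 23 of 33 rises and collagens 17 of 27 falls.

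The extracellular matrix and the junctions between cells moved apart, where over all genes 17.6% rose and 29.1% fell. Collagen genes fell in 17 of 27 and rose in 4 (median -0.19), or in 15 and 4 after centring on the median and 12 and 3 with the actin covariate. Besides Col23a1, the basement membrane chains Col4a2 and Col18a1 fell by 0.64 ± 0.05 and 0.55 ± 0.05 and Col27a1 by 0.69 ± 0.05. Col25a1, a transmembrane collagen at 12.85 to 13.26 under short days, rose by 0.31 ± 0.05 without overlap, while its second probe set gave -0.09 and did not pass. Of 31 genes of basement membrane, adhesion and proteases 7 rose and 12 fell (9 and 8 after centring). The integrin Itgb1 rose by 0.99 ± 0.08, from 9.20 to 9.96 up to 10.33 to 10.89, and the cadherin Cdh1 by 0.56 ± 0.08, while the protease Mmp2 fell by 0.49 ± 0.06. Claudins and tight junction genes rose in 10 of 18 and fell in 1, with a median of 0.19. Cldn7 rose by 0.80 ± 0.08 with overlap, Ocln by 0.57 ± 0.07 and the scaffold Tjp1 by 0.28 ± 0.04, both without. With the actin covariate 4 rose and 2 fell (median 0.08), and without the arrays high in Prl or Gh 8 rose and none fell.

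Ion channel genes moved in both directions, where over all genes 17.6% rose and 29.1% fell. Of 30 potassium channel genes 6 rose and 13 fell (8 and 9 after centring on the median). Kcnh2 fell by 0.66 ± 0.06 without overlap, and Kcnj10 and Kcnk1, an inward rectifier and a leak channel, rose by 0.42 ± 0.05 and 0.30 ± 0.04, also without. Of 29 calcium and sodium channel genes 8 rose and 11 fell (11 and 9 after centring), with the T-type channels Cacna1h and Cacna1g down by 0.66 ± 0.06 and 0.32 ± 0.04 without overlap.

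Other lists held few large members, and over all genes 17.6% rose and 29.1% fell. Of 28 immediate early genes 6 rose and 6 fell (8 and 4 after centring on the median). Gem rose by 0.76 ± 0.08 and Btg2 by 0.45 ± 0.06, and Fos was 0.03 ± 0.17. The Gem and Btg2 differences were both widest at ZT0, where that of Btg2 was 1.95. Long-day Gem arrays read 9.13 and 8.99 at ZT0 and 6.97 to 7.59 at the other times. The short-day Gem arrays ran from 6.11 to 7.14. Cirbp, a cold-inducible RNA-binding protein, rose by 0.82 ± 0.09 and the heat shock genes Hspb1 and Hspa1a fell by 0.63 ± 0.10 and 0.58 ± 0.08. That list had 3 rises and 4 falls of 12, or 5 and 3 after centring on the median. Of 17 glucocorticoid-responsive genes 5 rose and 2 fell, with Fkbp5 down by 0.41 ± 0.06 but 0.02 as the median over its probe sets. Of 14 endocannabinoid genes 4 rose and 7 fell (5 and 4 after centring), with the synthetic enzyme Dagla and the receptor Cnr1 both down, by 0.32 ± 0.05 and 0.32 ± 0.07, while a second Cnr1 probe set rose by 0.17. Proliferation genes were mixed, with 6 rises and 7 falls of 25 (11 and 6 after centring): Mki67 rose by 0.44 ± 0.06 and Rrm2 by 0.51 ± 0.07, from short-day day means of 6.96 and 5.75, the latter dim, while Cdk1 was 0.02 ± 0.06. Of 24 interferon-stimulated genes 4 rose and 3 fell (5 and 1 after centring), and Ifit3 and Ifit2 rose most, by 0.57 ± 0.09 and 0.43 ± 0.06.

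**Figure D4:**
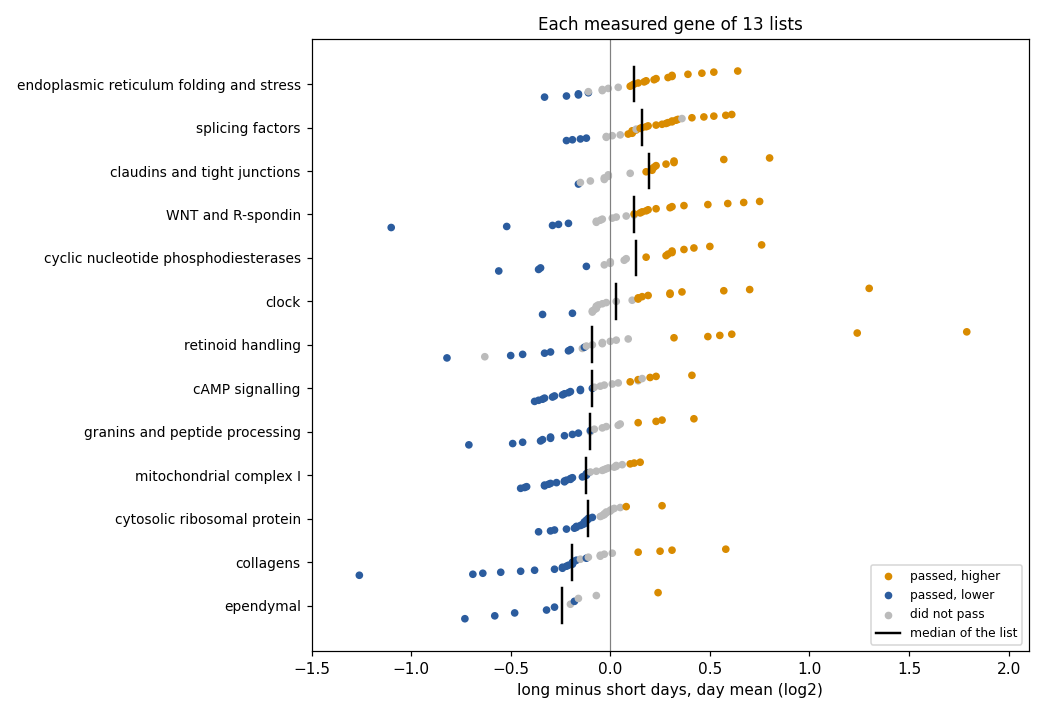
Day mean difference, long minus short days on the log2 scale (x axis), of every measured gene in 13 lists (y axis); orange and blue points passed, grey ones did not, and the bar is the list median. Medians run from -0.24 for ependymal markers to 0.19 for claudins and tight junctions, and Lrat (1.79) and Col23a1 (-1.26) stand at the ends.

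Markers of other cells in reach of the punch moved by list, and over all genes 17.6% rose and 29.1% fell. Ependymal cilia genes were the clearest, where 6 of 10 fell and 1 rose (median -0.24), or 3 and 0 with the actin covariate. Dynlrb2, Tekt1 and Ak7 fell by 0.73 ± 0.07, 0.58 ± 0.05 and 0.48 ± 0.06 without overlap. The summed level of the 10 markers was 11.22 to 11.46 under long days and 11.56 to 11.89 under short days. Wdr63, a cilium gene among the largest falls, was dim under long days at 5.41. Astrocyte markers split, with Gfap and Slc1a3 down by 0.88 ± 0.11 and 0.59 ± 0.03 and the connexins Gjb6 and Gja1 up by 0.72 ± 0.06 and 0.24 ± 0.03. Other probe sets gave -0.52 and 0.04 for Gfap and ran from -0.38 to 0.04 for Slc1a3, and neither value of 0.04 passed. Of the 10 astrocyte markers 3 rose and 5 fell (4 and 4 after centring on the median), with summed levels of 14.39 to 14.71 and 14.39 to 14.69. Of 11 microglia and macrophage markers 2 rose and 5 fell, at 12.53 to 12.88 against 12.63 to 13.23. Endothelial markers fell in 4 of 11 and rose in 1, Plvap by 0.52 ± 0.05, at 11.87 to 12.14 against 11.85 to 12.50. Oligodendrocyte markers rose in 3 of 11 and fell in 3, or 5 and 3 after centring (14.44 to 14.82 against 14.39 to 15.09), and choroid plexus markers rose in 2 of 8 and fell in 1 (11.43 to 11.99 against 11.34 to 14.18, with Ttr at 14.02 and 14.05 in the first short-day arrays of ZT4 and ZT20). Of 6 blood cell markers 0 passed in limma (1 rose after centring on the median) and 0 had an unadjusted p under 0.05; 4 of them were dim, and Hba-a1 lay between 4.27 and 4.55 in all 24 arrays. The part of cell composition in these results was not tested.

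The difference between photoperiods was not of the same size at every hour. Taken singly, ZT0 had 3630 passing genes (20.0%) and ZT4 had 4030 (22.2%), followed by 2948 at ZT8 (16.2%) and only 992 at ZT12 (5.45%). The last 2 times had 2920 at ZT16 (16.0%) and 3564 at ZT20 (19.6%). ZT12, which is lit under long days and dark under short days, had the fewest with all arrays in the fit. Each of these counts rests on 4 arrays and moves with single ones: at ZT8 it was 475 without the first short-day array, at ZT12 188 without the second long-day array, at ZT16 626 without the second short-day array and 1180 (with 2637 at ZT20) without the second long-day arrays of ZT16 and ZT20, at ZT0 1133 without the second short-day array, at ZT4 1540 without the first short-day array and at ZT20 1938 without the first short-day array. The median of the 180 rises was 0.541 at ZT12 and 0.750 to 0.877 at the other times, and that of the 202 falls was -0.490 at ZT12 and -0.616 to -0.812 elsewhere. Arrays of one ZT differ in clock time, since lights came on 4 h earlier under long days.

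A direct test of the difference between time points passed for 782 genes (4.30%). It was 85 with arrays paired by the clock, 978 without the second long-day arrays of ZT16 and ZT20, 499 without the first long-day ZT12 array and 1456 without the first short-day ZT16 array. Among the 10 with the smallest p were the clock genes Per2 (adjusted p = 1.30e-11), Nr1d1 (2.38e-11), Npas2 (7.58e-11) and Arntl (3.08e-09), with Per2 at -1.04 at ZT4 and 1.74 at ZT20, the latter 1.49 without those second arrays. Neurod1, a neuronal transcription factor (2.69e-11), differed by -2.45 at ZT16, or -2.24 without those arrays, and by 0.50 to 0.95 at the other times. Gadd45b and Btg2, both early-response genes, were 1.85 and 1.95 higher at ZT0 and differed by -0.31 to 0.25 and by -0.33 to 0.49 at the other times. The difference at ZT12 set against those at ZT4 and ZT20 passed for 762 genes (4.19%), or 239 without the first long-day ZT12 array and 1361 without the second short-day ZT4 array. Dbp and Vegfd had positive values there, 2.59 ± 0.29 and 2.05 ± 0.22, and Hspa1b and Crem negative ones, -2.03 ± 0.22 and -1.53 ± 0.18. For Dio2, Lrat and Slco1c1 the long minus short difference was smaller at ZT12 than at the other 2 times, by 1.00 ± 0.17, 1.00 ± 0.24 and 0.89 ± 0.22. ZT12 was the hour at which the short-day levels of these 3 genes peaked.

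**Figure D5:**
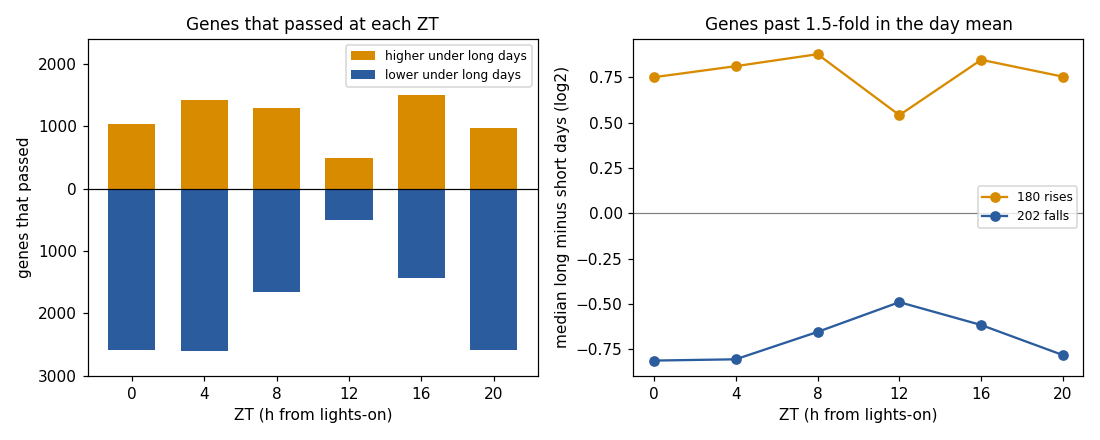
Left, number of genes that passed at each ZT (x axis, h from lights-on), higher (orange, above 0) or lower (blue, below 0) under long days; right, median long minus short difference on the log2 scale of the 180 rises and 202 falls of at least 1.5-fold in the day mean. At ZT12 992 genes passed in all, against 4030 at ZT4, and both medians are nearest to 0, at 0.541 and -0.490.

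Genes were read from 1 probe set each, and other probe sets of the same gene give a check within the arrays. Of the 180 rises of at least 1.5-fold 116 had other probe sets, and in 84 of them another passed with the same sign and in 10 with the opposite one. Of the 202 falls 100 had others, 71 with the same sign and 4 with the opposite one. Dio2 and Eya3 were of the first kind, with 1.53 and 1.32 for Dio2 and 0.63 for the next brightest Eya3 probe set. In arrays of 6-week-old mice on a first long day, which differ from both groups in age as well, the means over all hours were 12.51 and 12.01 for Tshb and 13.06 and 12.37 for Lrat when lights-on was moved 8 h earlier and when lights-off was moved 8 h later. The day means of the chronic groups were 14.09 and 10.54 for Tshb and 13.58 and 11.79 for Lrat.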

How the data were processed

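RNA of the pars tuberalis was measured on Affymetrix whole-genome mouse arrays. The deposited values are log2 signals per probe set that the authors made with RMA in R 2.8.0, per the submitters' processing notes; the genome build and annotation are not given in the sources used here. Arrays carry no read depth, so precision rests on their number. Of 45101 probe sets 34958 had 1 gene symbol, 932 several and 9211 none in the platform annotation, and each of 18194 genes was read from its brightest probe set. limma 3.58.1 in R 4.3.3 fitted 24 means, 1 per condition and time point, on all 48 arrays (24 residual degrees of freedom), with a mean-variance trend, and Benjamini-Hochberg adjustment over all genes, two-sided at 0.05. First-day arrays thus share in the estimate of the spread. The fit was tested on simulated data.

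Named genes are the 15 largest rises and 15 largest falls with 1 sign at all 6 time points and a level above the first quartile. Genes of the pathway were taken by name, and the 10 smallest p-values of each test between time points were added. From each list came the members with the smallest day mean p-values or a passing change of at least 1.5-fold. The text also gives some other list members. The genes and the 54 lists were chosen with earlier results of these data known, so their counts describe the data and support nothing independently. Permutation tests drew 100000 resamples. Promoter sequences are RefSeq's on GRCm38.p6. Alternatives covered the scaling, the probe set of a gene, dim genes, the arrays in the fit, time terms, the replicate number, single arrays and time points, RNA quality and pars distalis signal. Same-numbered arrays of the 2 photoperiods were not treated as pairs.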

Additional observations from a re-analysis of the deposited data

Results flagged for a closer look

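The largest rises and falls and the pathway genes taken by name were checked for a difference that varied between time points. For 17 of them the long minus short difference itself differed (F test in limma on 5 degrees of freedom, adjusted over all genes). Among genes of the hormone and its signals these were Eya3 (adjusted p = 0.027), Cga (0.0135), Tef (1.06e-06), Dbp (1.26e-08), Dio2 (0.00193), Mtnr1a (0.0082), Vegfd (3.08e-09), Crem (2.12e-06) and Pde10a (0.000122). Among the largest rises they were Dusp4 (5.86e-06), Timeless (1.17e-05), Fut4 (0.00102), Tafa3 (0.0114), Piwil4 (0.0164) and Lrat (0.0423, or 0.0633 without the second long-day arrays of ZT16 and ZT20), and among the largest falls Lgr6 (0.000272) and Col23a1 (0.00222). Tshb is not among them (0.959). Other genes named above also passed this test and are outside the count, among them Per2, Nr1d1, Npas2, Arntl, Neurod1, Plvap, Vim, Fzd5 and Col18a1. Each time point rests on 2 arrays of each photoperiod, matched by ZT and not by clock time.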

How the results depend on the processing

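The day mean count lay between 6061 and 8995 genes under the other ways of fitting (24 arrays alone, time terms, moderation, block, run means, probe set median, first-quartile filter, centring, left-out arrays or time points), with 6296 among genes above the median level. It was 17830 with every probe set as a feature and 5006 with the actin covariate. Rises of at least 1.5-fold were then 741 and 114 and falls 325 and 98, and falls were 126 with arrays centred on the median. Leaving out 1 array gave 8057 to 8721 genes, 162 to 210 rises and 175 to 246 falls. Of 30 largest changes 15 were left among genes above the median level, where fewer genes are tested, and 29 to 30 without 1 array.

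The test between time points gave 271 genes on the 24 arrays alone, 1265 with a replicate block within each condition, 85 matched by clock time and 499 to 1456 without 1 array. ZT12 against ZT4 and ZT20 gave 249, 1180 and 239 to 1361 under the first, the block and single left-out arrays. Single times gave 486 on the 24 arrays alone and 1668 with that block at ZT12, and 1889 on the 24 arrays alone and 1180 without the second long-day ZT16 and ZT20 arrays at ZT16. Without 1 array they ran from 1133 to 3849 at ZT0, 1540 to 4338 at ZT4, 475 to 3474 at ZT8, 188 to 1087 at ZT12, 626 to 3821 at ZT16 and 1938 to 3755 at ZT20. The cause was not tested.

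Same-numbered arrays of the 2 photoperiods deviated together with correlations of -0.0173 to 0.223, above 0.1 at 3 of 6 time points, which leaves the pairing unsettled; a replicate block gave 8754 genes in the day mean, within each condition 8995, and as a random effect 7119. Taken over probe sets, the median reversed Vegfd (0.35), Spred2 (0.05), Ptch1 (-0.14), Dnajb1 (-0.11), Fkbp5 (0.02), Mobp (-0.05) and Flt1 (-0.22); the cause was not tested. Without the second long-day ZT16 and ZT20 arrays Lrat (adjusted p = 0.0633 in limma), Fzd5 and Col18a1 no longer passed between time points. Of 226 followed genes that passed, 193 did so in all 48 settings, and 13 were lost with the actin covariate. Many followed genes were picked for small p-values or large changes in the day mean. These counts therefore do not describe genes at large.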
